A study of Mus musculus with 185 samples.

Results

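The endoplasmic reticulum (ER) folds secreted and membrane proteins, and its load is read by 3 sensors in the ER membrane that together run the unfolded protein response. ATF6 and the XBP1 protein made after IRE1 (Ern1) splices its message raise ER chaperones and the degradation machinery of the ER (ERAD). The third sensor, PERK (Eif2ak3), phosphorylates eIF2alpha, and this integrated stress response, which amino acid shortage also starts through GCN2, slows translation while ATF4 and its target genes rise. 33 member genes of these 2 branches were followed here, of 57010 genes in the deposited counts. They were picked by name: 15 ER chaperones and foldases, 6 ERAD genes, 2 genes of the translocon (the channel through which new proteins enter the ER), 3 sensors, the factors Xbp1 and Atf4, and 5 targets of ATF4. Earlier results of these data were known at that choice, so shares of members set beside all genes only describe the data.

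The mice were male C57BL/6 J, an inbred strain, 8 weeks old, with no transgene or mutant allele named. In a 16 h study they were housed in pairs, 6 mice on chow, 6 switched to HFD (high-fat diet) and 6 fasted, and in a 24 h study they were housed singly, 9 on chow and 10 fasted. Bulk RNA-seq was made from 5 dissected regions per mouse: hypothalamus, hippocampus, superior and inferior colliculus in both studies, with frontal cortex at 16 h and zona incerta at 24 h. The count columns name a mouse and its diet but not the region, so the 5 columns of each mouse were summed and a level is the CPM of that sum (counts scaled to a library of 1000000), in which the deeper columns weigh more.

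Sums held 57962237 to 161577364 counts per mouse. Of the columns, 5 for each of 37 mice, 27 were low (under 1000000 counts or under 16000 genes expected in a draw of 500000), 1 in the 16 h chow, 3 in the 16 h fasted, 0 in the 16 h HFD, 11 in the 24 h chow and 12 in the 24 h fasted mice. A block of 24 h samples without detectable RNA was sequenced on a separate flowcell and discarded by the authors. Its columns are kept in the sums here, so the regions that a sum reflects differ between mice. By the sample labels, that block held samples from each of the 5 regions of the 24 h study. Among them was the superior colliculus of chow mouse 1422 and of fasted mice 1424, 1433, 1434 and 1435. Mitochondrial transcripts took 3.78% to 4.98% of the counts at 16 h and 8.57% to 16.7% at 24 h. All 7 neuronal marker genes were detected, summing to 2488 to 4409 CPM over all mice. By the study's methods, the superior colliculus samples of chow mouse 1423 and fasted mouse 1454 were swapped in handling and their labels were then corrected. The corrected labels are used here.

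All 33 members passed the filter on low counts in each fit. In the 24 h chow mice, Canx and Calr, which hold newly made glycoproteins until they fold, had the highest levels per length of the canonical transcript, with medians of 111.7 and 98.8 CPM per kb. Hsp90b1 followed at 54.7, then Atf4 at 37.7 and Hspa5 at 34.2 CPM per kb, and the ranges of Atf4 and Hspa5 overlapped. The lowest were Chac1 at 3.07 and Trib3 at 0.391 CPM per kb. In the 16 h chow mice Canx (109 CPM per kb) and Calr (93.3) were again the top 2 members and Trib3 (0.490) the last. Levels below are CPM without a length correction, and are compared between mice only.

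Chaperone promoters are known for the ER stress response element (ERSE, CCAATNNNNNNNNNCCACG), which ATF6 and XBP1 bind with NF-Y, and some stress genes carry the shorter ERSE-II (ATTGGNCCACG). ATF4 binds composite elements such as TGATGNAA. These strings were searched on both strands in RefSeq promoter windows (build GRCm38.p6) of 300 bases, 250 before to 50 after the start, which were held for 29 of the 33 members. ERSE was in 7 of 13 chaperone windows (Hspa5, Hsp90b1, Calr, Canx, Pdia6, Dnajc3 and Creld2), in that of the ERAD gene Syvn1 and in none of 5 ATF4 target windows, against 0.119% of 32851 windows of all genes. TGATGNAA was in Asns, Chac1 and Trib3 of the 5 ATF4 targets, in Herpud1 and in no chaperone window, against 3.97% of all windows. ERSE-II was in Dnajb11 and Herpud1, against 0.0365% of all windows, and the XBP1 element TGACGTGG in no member, against 0.676%.

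The stretches below show the sites of chaperones that the results turn on, and of 2 genes with the ATF4 element. Each runs 5′ to 3′ on the strand of the gene and ends before the start, with the fixed letters of the motif in capitals. A motif can lie on either strand, so that its letters may appear reverse-complemented.
Hspa5, chr2:34771995-34772073, plus strand: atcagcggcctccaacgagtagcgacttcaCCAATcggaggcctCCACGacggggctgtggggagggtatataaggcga
Hsp90b1, chr10:86705503-86705686, minus strand: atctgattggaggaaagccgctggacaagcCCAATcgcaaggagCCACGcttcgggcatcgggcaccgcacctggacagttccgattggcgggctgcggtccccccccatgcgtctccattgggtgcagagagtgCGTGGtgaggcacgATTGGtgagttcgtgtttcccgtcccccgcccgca
Calr, chr8:84847045-84847123, minus strand: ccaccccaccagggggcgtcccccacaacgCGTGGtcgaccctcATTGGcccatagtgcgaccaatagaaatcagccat
Pdia6, chr12:17266461-17266539, plus strand: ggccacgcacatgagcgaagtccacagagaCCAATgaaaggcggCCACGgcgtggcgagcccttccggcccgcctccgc
Creld2, chr15:88819490-88819568, plus strand: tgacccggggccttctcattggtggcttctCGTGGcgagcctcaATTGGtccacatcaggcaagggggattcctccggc
Herpud1, chr8:94386287-94386417, plus strand: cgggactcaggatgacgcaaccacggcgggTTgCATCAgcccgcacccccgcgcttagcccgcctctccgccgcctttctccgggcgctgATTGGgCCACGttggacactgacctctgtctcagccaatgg
Asns, chr6:7693210-7693262, minus strand: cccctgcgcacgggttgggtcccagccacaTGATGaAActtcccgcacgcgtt
Hsp90b1 holds 2 ERSE sites, and Herpud1 holds a TGATGNAA site upstream of its ERSE-II site. Of the 6 chaperones that fell at 24 h, Sdf2l1 and Pdia4 have a window without these strings. Hspa5, Canx, Dnajc3 and Syvn1 hold ERSE and were not called at 24 h.

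After 24 h of fasting, 6 of 15 ER chaperones were lower and the negative regulator of the stress response, Ppp1r15a, was higher. Of 33 members, 6 fell and 2 rose (edgeR quasi-likelihood test, adjusted p under 0.05), where 5.62% of the 29011 genes tested were lower and 5.78% higher, 11.4% in all. The 6 that fell are all among the 15 chaperones: Sdf2l1, Creld2, Pdia4, Pdia6, Calr and Hsp90b1. The 2 that rose were the ERAD gene Herpud1 and the ATF4 target Ppp1r15a. The median log2 fold change was -0.15 over the chaperones, 0.06 over the ERAD genes and 0.02 over the ATF4 targets, beside -0.0044 over all genes and 0.04 over the 8731 genes whose mean log2 CPM reached 4.

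Sdf2l1 (chr16:16948002-16950252, minus strand, GRCm39), a cofactor that keeps Hspa5 bound to unfolded chains, lay at 5.44 to 7.52 CPM, median 6.74, with chow, and at 4.04 to 5.48 CPM, median 4.59, without food. 9 of 10 fasted mice were below the lowest chow mouse. The log2 fold change was -0.54 ± 0.08 (SE), 0.688-fold (adjusted p 5.86e-05).

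The protein disulfide isomerases form and reshuffle disulfide bonds. Pdia4 (chr6:47770077-47790462, minus strand) held 36.0 to 43.5 CPM on chow (median 37.5) and 26.4 to 35.0 in fasted mice (median 30.2). It was the only member whose groups did not overlap at 24 h, which held in that direction for 0.541% of all genes tested. Its log2 fold change was -0.34 ± 0.06 (adjusted p 0.000630). Pdia6 (chr12:17316533-17335913, plus strand), a partner of Hspa5 that also tempers IRE1, held 48.6 to 64.2 CPM on chow (median 51.4) and 39.0 to 55.3 during fasting (median 44.1). With 8 of 10 fasted mice below the lowest chow mouse, it fell by 0.29 on the log2 scale (SE 0.07, adjusted p 0.0127).

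Creld2 (chr15:88703795-88710890, plus strand), a secreted ER stress protein with isomerase activity, held 8.38 to 11.32 CPM on chow (median 9.11) and 6.32 to 8.95 in fasted mice (median 7.34). 9 of 10 fasted mice were below every chow mouse, and the log2 fold change was -0.35 ± 0.07 (adjusted p 0.00187). Calr (chr8:85567946-85573667, minus strand), the calcium-binding lectin chaperone, held 185.3 to 246.8 CPM on chow (median 226.1) and 164.7 to 198.8 in fasted mice (median 178.5). All 10 fasted mice were below the chow median, 6 of them below the lowest chow mouse, and Calr fell by 0.27 on the log2 scale (SE 0.05, adjusted p 0.00243).

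Hsp90b1 (chr10:86526073-86541446, minus strand), the HSP90 of the ER also called GRP94, held 146.9 to 169.7 CPM on chow (median 154.7) and 124.9 to 165.5 in fasted mice (median 132.8). Its log2 fold change was -0.20 ± 0.06 (adjusted p 0.0247), with 8 of 10 fasted mice below the lowest chow mouse. Hspa5 (chr2:34661982-34668880, plus strand), the master chaperone BiP that also keeps the sensors silent, held 154.8 to 201.4 CPM on chow (median 169.5) and 132.8 to 191.1 in fasted mice (median 148.8). Here too 8 of 10 fasted mice were below the lowest chow mouse, while fasted mice 1424 and 1425 were at 191.1 and 181.9 CPM, and the log2 fold change of -0.19 ± 0.07 did not pass (adjusted p 0.104).

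The other 8 chaperones did not pass either. Of these, Manf (-0.15 ± 0.07), Pdia3 (-0.13 ± 0.06), Dnajb11 (-0.07 ± 0.05), Hyou1 (-0.04 ± 0.07) and Canx (-0.0071 ± 0.067) had log2 fold changes below 0. Those of Dnajc3 (0.06 ± 0.05), P4hb (0.06 ± 0.05) and Dnajb9 (0.13 ± 0.07), a co-chaperone that restrains IRE1, were above 0. Across the 15 chaperones 12 had a value below 0, while 50.98% of all genes had.

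The factors and sensors gave no call at 24 h. Xbp1 held 40.6 to 55.3 CPM on chow (median 47.5) and 36.0 to 50.2 in fasted mice (median 42.7), a log2 fold change of -0.18 ± 0.07 (adjusted p 0.113). 9 of 10 fasted mice were below the chow median, but the groups overlapped. Counts per gene cannot tell the spliced from the unspliced Xbp1 message. Atf4, whose activity is set mainly at translation, held 54.7 to 76.5 CPM on chow (median 65.7) and 53.8 to 99.99 in fasted mice (median 68.1), a log2 fold change of 0.10 ± 0.09 (adjusted p 0.571). The log2 fold changes of the sensors Ern1 (0.11 ± 0.06), Eif2ak3 (0.06 ± 0.06) and Atf6 (0.23 ± 0.12) were above 0, with a lowest adjusted p of 0.258.

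**Figure D1:**
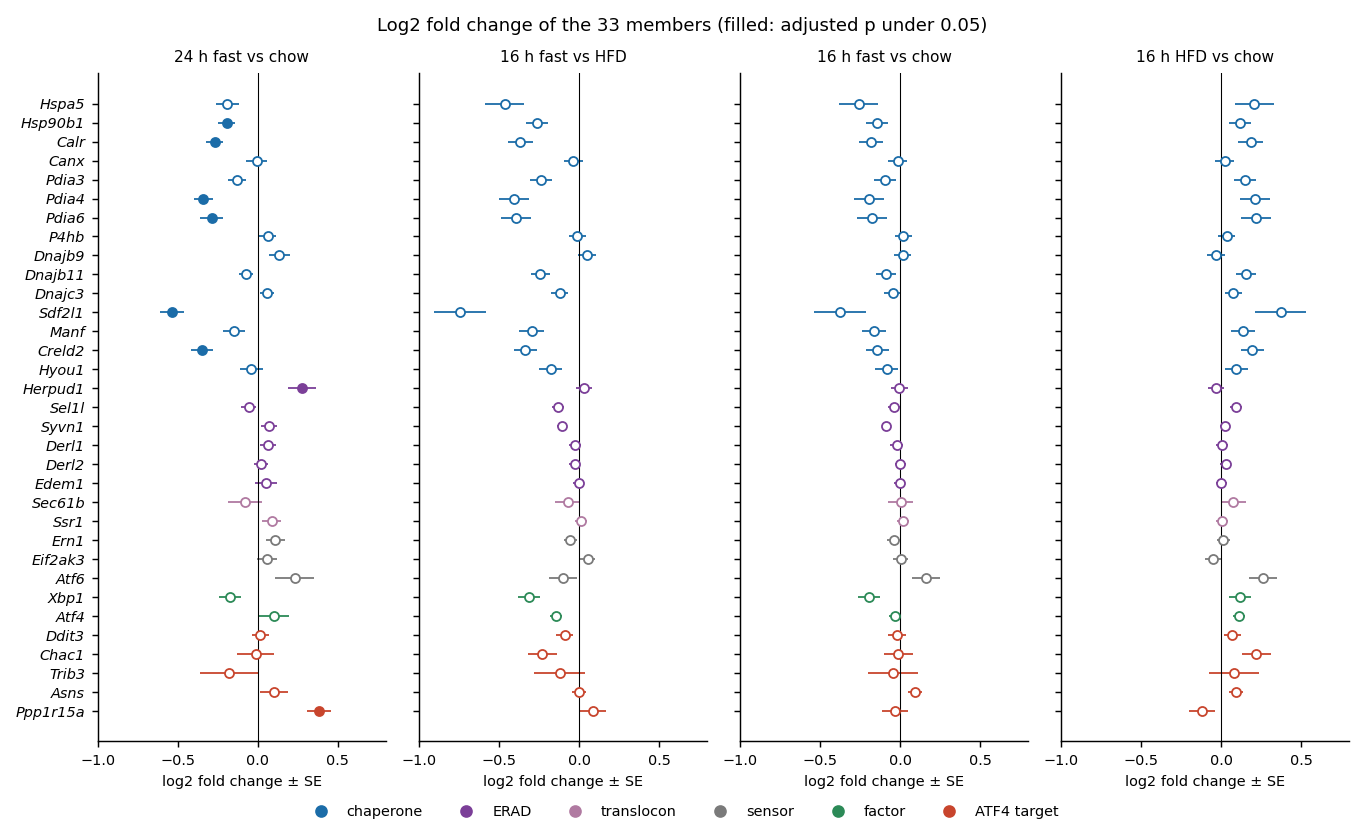
Log2 fold change (points) with its SE (bars) for each member in 4 comparisons, coloured by class and filled where the adjusted p is under 0.05. At 24 h the 6 filled chaperones lie between -0.54 and -0.20 and Ppp1r15a at 0.38. In the 16 h panels no point is filled, and Sdf2l1 lies farthest from 0 in each.

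Of the 5 ATF4 targets, 1 rose at 24 h. Ppp1r15a (chr7:45172340-45175692, minus strand), GADD34, brings a phosphatase to eIF2alpha and so ends the translation block. It held 6.81 to 8.23 CPM on chow (median 7.66) and 8.22 to 11.9 in fasted mice (median 10.19). 9 of 10 fasted mice were above the highest chow mouse, and the log2 fold change was 0.38 ± 0.08 (adjusted p 0.00185).

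Ddit3 (CHOP), the pro-apoptotic factor of prolonged stress, held 9.14 to 10.73 CPM on chow (median 10.14) and 9.06 to 10.93 in fasted mice (median 10.17). The 2 groups lay on each other, with a log2 fold change of 0.02 ± 0.05 (adjusted p 0.902). Asns, asparagine synthetase and a standard readout of amino acid shortage, held 57.3 to 80.2 CPM on chow (median 69.3) and 58.1 to 106.1 in fasted mice (median 71.9), a log2 fold change of 0.10 ± 0.09 (adjusted p 0.548). The range on fasting was widened by 1 animal, fasted mouse 1435, at 106.1 CPM. Chac1, which degrades glutathione, was at -0.01 ± 0.11, and Trib3, a pseudokinase that restrains ATF4, at -0.18 ± 0.18.

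Among the ERAD genes, Herpud1 (chr8:95113022-95123141, plus strand), which assembles the degradation complex, rose. It held 39.3 to 53.5 CPM on chow (median 44.6) and 42.0 to 66.8 in fasted mice (median 57.2), with 6 of 10 fasted mice above every chow mouse. The log2 fold change was 0.28 ± 0.09 (adjusted p 0.0403). Leaving out any of 13 of the 19 mice ended this call (highest adjusted p 0.0825 over all alternatives); it stood without chow mice 1423 or 1441 or fasted mice 1434, 1445, 1453 or 1454. The other ERAD members, Sel1l (-0.06), Syvn1 (0.07), Derl1 (0.07), Derl2 (0.02) and Edem1 (0.05), and the translocon members Sec61b (-0.08) and Ssr1 (0.09) gave no call, with SEs of 0.04 to 0.11.

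**Figure D2:**
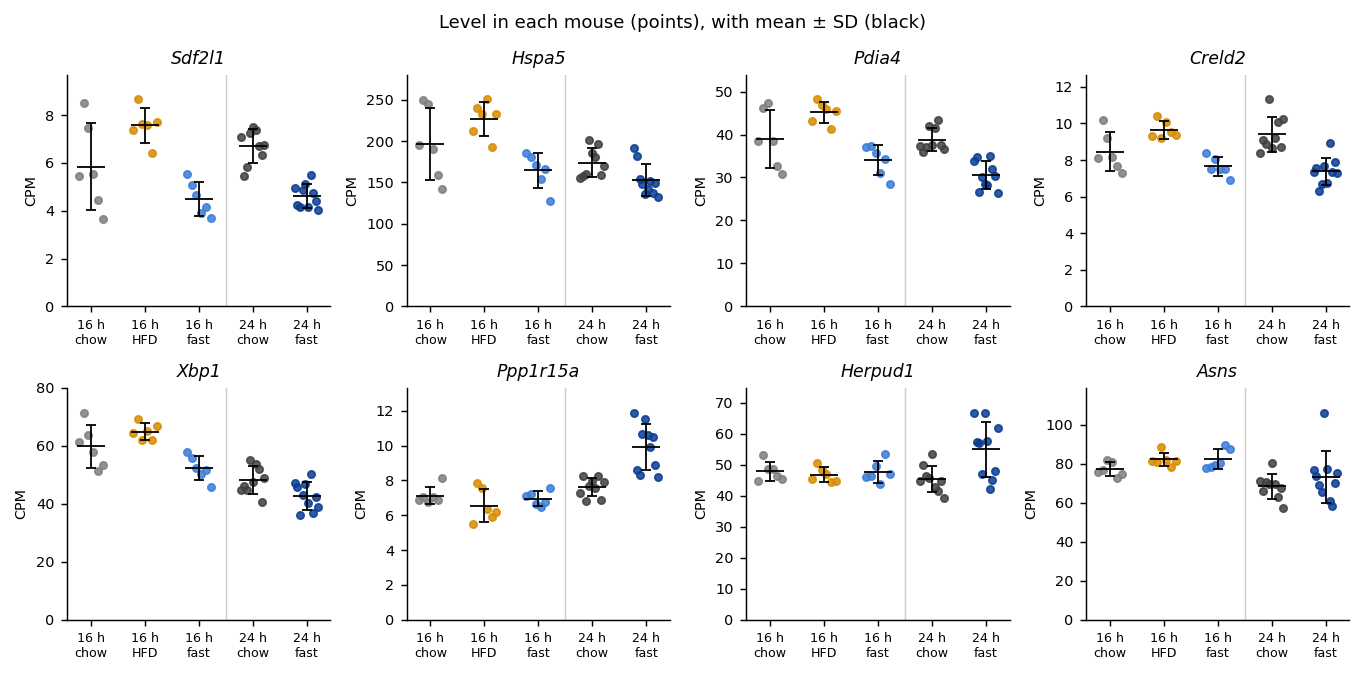
Level of 8 members in every mouse in CPM (points), with the mean and SD of each group in black, and the 16 h and 24 h studies separated by a line. The fasted mice of both studies sit low for Sdf2l1, Pdia4 and Creld2, while Ppp1r15a is at 8.22 to 11.9 CPM in the 24 h fasted mice and at most 8.23 in every other group.

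The calls on the 6 chaperones moved with the weighting of columns and little with single mice. With equal weight per column (limma) Sdf2l1 alone of the 6 was called, Herpud1 stayed and Ppp1r15a was lost (adjusted p 0.147; 7.50e-05 to 0.147 over all alternatives). With equal weight and the low columns left out, an alternative added after seeing the data, 11 members were lower, the 6 with Hspa5, Xbp1, Manf, Pdia3 and Dnajb11, and Ppp1r15a alone was higher. Sdf2l1, Creld2, Pdia4, Pdia6 and Calr stayed called without any 1 mouse. Hsp90b1 was lost without chow mouse 1441 or 1442 or fasted mouse 1453, Hspa5 was gained without fasted mouse 1424 or 1425 and Xbp1 without fasted mouse 1445. Without chow mouse 1423 and fasted mice 1454 and 1455 together, Hsp90b1 and Herpud1 were lost, and without 1423 and 1454, the mice of the corrected swap, the same 8 members were called.

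Some markers of other cells were called lower by edgeR in the 24 h fasted mice as well. They were 3 of 5 endothelial, 2 of 3 mural, 3 of 4 meningeal, 3 of 5 microglial and 2 of 5 astrocyte markers. Of 7 neuronal and 5 oligodendrocyte markers 0 were called. The endothelial and astrocyte markers not called had log2 fold changes above 0, up to 0.23 and 0.22. The highest microglial value was 0.14. The endothelial markers summed to 141.8 to 225.4 CPM on chow and 121.9 to 175.7 in fasted mice, the mural to 127.4 to 190.8 and 105.98 to 145.6, the meningeal to 42.3 to 175.7 and 36.8 to 80.01, and the microglial to 95.1 to 143.5 and 81.3 to 131.7. The astrocyte markers summed to 958.1 to 1146 and 815.95 to 1077 CPM. Those of choroid plexus reached 1610 and 3824 CPM in the highest mouse of each group. All 5 choroid plexus markers were above 0 (median log2 fold change 0.73), and 0 were called. None of these markers was at 0 in all mice of a group. All 5 hypothalamic markers had log2 fold changes above 0 (median 0.62), and Agrp was called higher. They summed to 6.94 to 129.98 CPM on chow and 15.3 to 233.0 in fasted mice. Of 5 pituitary markers 4 were below 0 (median -0.90), with sums of 5.69 to 1059 and 6.67 to 286.9 CPM. Of 5 forebrain glutamatergic markers 1 was below 0 (median 0.07), and neither of these 2 lists held a call. The part of all these markers in the chaperone result was not tested, and in bulk tissue fewer cells of a type and less RNA per cell cannot be told apart.

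In the 16 h study no member was called in any of 3 comparisons by edgeR. The widest of them for the chaperones, which carry protein folding, was fasted against HFD mice, with the chow mice in between: the median log2 fold change of the 15 chaperones was -0.14 in fasted and 0.15 in HFD mice against chow. Of the 15 chaperones 14 had a log2 fold change below 0 in that contrast, with a median of -0.26, beside -0.12 over all 33 members and 0.0011 over all genes. For 10 members, Hspa5, Calr, Pdia4, Pdia6, Sdf2l1, Manf, Creld2, Sel1l, Syvn1 and Xbp1, all 6 fasted mice were below all 6 HFD mice, which held for 0.645% of all genes tested.

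Markers of other cells and of forebrain differed between the fasted and HFD mice as well, none of them called by edgeR. All 4 blood markers (median log2 fold change -0.52), all 5 of choroid plexus (-0.73), all 5 of forebrain glutamatergic neurons (-0.23) and all 5 of microglia (-0.13) had values below 0, and all 5 of oligodendrocytes (0.18) above 0. The blood markers summed to 48.1 to 103.9 CPM in fasted and 79.4 to 146.4 in HFD mice, those of choroid plexus to 18.2 to 289.2 and 24.7 to 594.5, of forebrain glutamatergic neurons to 138.1 to 367.5 and 218.2 to 399.2, of microglia to 120.3 to 161.04 and 148.1 to 165.04, and of oligodendrocytes to 2326 to 3834 and 2199 to 3617. Each pair of ranges overlapped, and none of these markers was at 0 in all mice of a group. Their part in the chaperone values was not tested.

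Sdf2l1 held 6.43 to 8.66 CPM on HFD (median 7.62), 3.64 to 8.49 on chow (median 5.49) and 3.69 to 5.54 in fasted mice (median 4.42). The chow mice reached into both other groups. Its log2 fold change in fasted against HFD mice was -0.75 ± 0.16 (adjusted p 0.0608).

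Hspa5 held 192.7 to 250.5 CPM on HFD (median 232.6), 141.5 to 249.8 on chow (median 192.6) and 128.1 to 185.9 in fasted mice (median 168.9), a log2 fold change of -0.46 ± 0.12 in fasted against HFD mice (adjusted p 0.120). Xbp1 held 61.9 to 69.3 CPM on HFD (median 64.8), 51.2 to 71.5 on chow (median 59.6) and 45.9 to 57.7 in fasted mice (median 52.01), a log2 fold change of -0.31 ± 0.07 (adjusted p 0.0657). In both genes the fasted and HFD mice were apart and the chow mice lay across them.

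Pdia4 held 41.2 to 48.2 CPM on HFD (median 45.8), 30.8 to 47.3 on chow (median 38.4) and 28.5 to 37.3 in fasted mice (median 34.9). Creld2 held 9.22 to 10.41 CPM on HFD (median 9.44), 7.31 to 10.18 on chow (median 8.15) and 6.94 to 8.38 in fasted mice (median 7.51). Manf, a secreted neurotrophic factor that is released when ER calcium falls, held 24.7 to 28.13 CPM on HFD, 20.7 to 29.998 on chow and 20.96 to 24.3 in fasted mice. In these 3 genes every fasted mouse was below every HFD mouse, and the chow mice overlapped both. The other chaperones that fell at 24 h also had values below 0 without passing. In fasted against HFD mice the log2 fold change was -0.37 ± 0.08 for Calr (adjusted p 0.0535), -0.34 ± 0.07 for Creld2 (0.0550), -0.41 ± 0.09 for Pdia4 (0.0749), -0.39 ± 0.09 for Pdia6 (0.0896) and -0.26 ± 0.07 for Hsp90b1 (0.119). Atf4 was at -0.14 ± 0.04 (adjusted p 0.132). Ddit3 was at -0.09 ± 0.05, Asns at 0.0015 ± 0.042 (-0.03 to 0.04 over the alternatives) and Ppp1r15a at 0.09 ± 0.08 (-0.22 with equal weight per column).

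edgeR called 0.219% of all genes between fasted and HFD mice and 0 of the 33 members. 17 members had an unadjusted p under 0.05, as did 11.4% of all genes. DESeq2 called 11 members lower (1.18% of genes): Sdf2l1, Creld2, Calr, Pdia4, Pdia6, Hsp90b1, Hspa5, Manf, Dnajb11, Xbp1 and Syvn1. The fit with 1 surrogate variable called 8 (0.407% of genes) and the fit with the round of cages as a covariate 6 (0.299%), each a subset of those 11. With counts summed per cage, 3 cages a diet, no gene was called, and 16 members had an unadjusted p under 0.05. Calls in the shared edgeR fit also appeared on leaving out chow mouse 2 (3 members), chow mouse 6 (6), fasted mouse 7 (2) or fasted mouse 8 (1).

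Within the 3 rounds in which the cages were started, 1 cage per diet each, most chaperones were lower in fasted than in HFD mice in every round. Each round started with the chow cage, then the fasted and then the HFD cage, so the order of start cannot be told apart from diet. Of the 15, 13, 15 and 12 were lower in rounds 1, 2 and 3, and 12 in all 3. Sdf2l1 differed by -0.59, -0.83 and -0.85 on the log2 scale, Hspa5 by -0.30, -0.57 and -0.54, Calr by -0.25, -0.41 and -0.44 and Xbp1 by -0.23, -0.31 and -0.40. Against chow the rounds were less even: 15, 14 and 8 of the chaperones were lower in fasted than in chow mice. Round 3 held chow mice 5 and 6, which had the lowest Hspa5 of the chow group at 159.1 and 141.5 CPM.

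**Figure D3:**
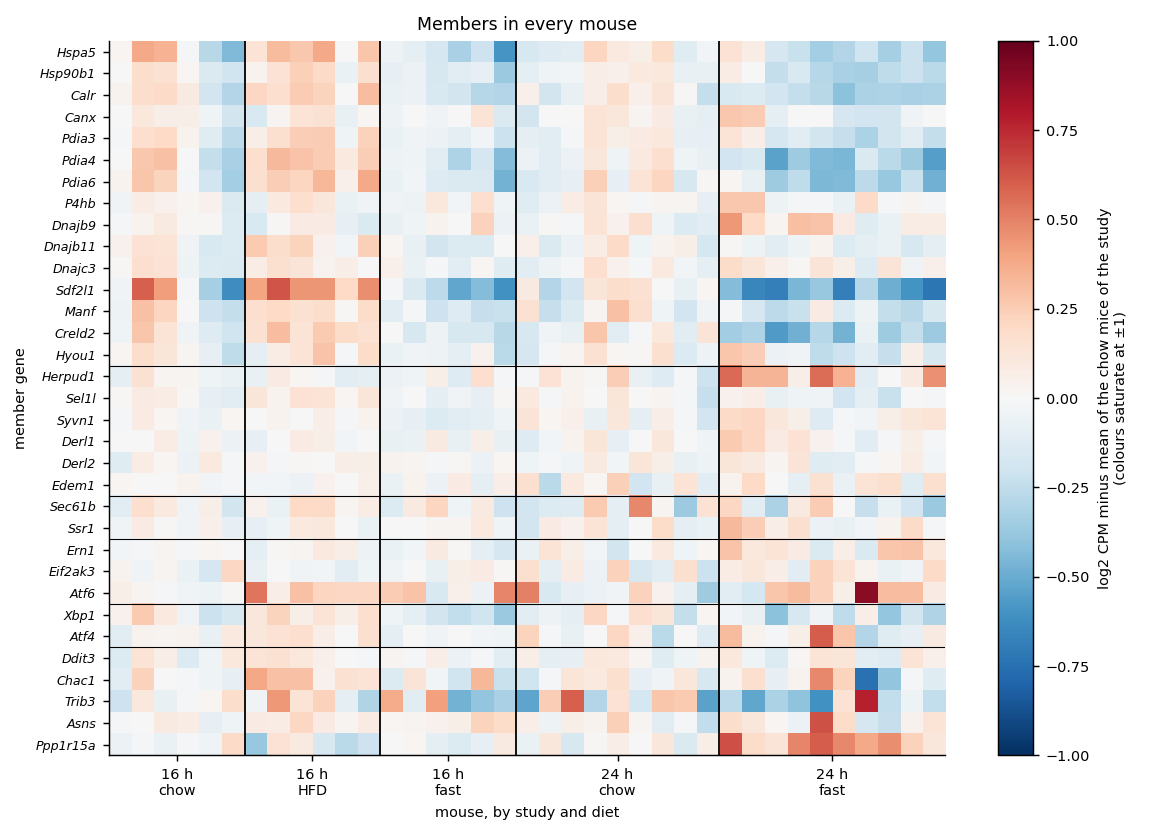
Log2 CPM of each member in each mouse, relative to the mean of the chow mice of its study (red higher, blue lower, saturating at ±1), with members in the order of their classes. The block of chaperones is mostly red in the HFD mice and blue in the fasted mice, and the 16 h chow mice split into red and blue columns.

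Against chow, fasting for 16 h gave 0 members called by edgeR and 0 by DESeq2, and 0% of 29746 genes by edgeR. With an unadjusted p under 0.05 were 8 members, where 7.62% of all genes had one. They were Hspa5 (-0.26 ± 0.12), Hsp90b1 (-0.15 ± 0.07), Calr (-0.18 ± 0.08), Sdf2l1 (-0.37 ± 0.16), Manf (-0.16 ± 0.08), Syvn1 (-0.09 ± 0.03), Xbp1 (-0.19 ± 0.07) and, in the other direction, Asns (0.09 ± 0.04). Asns held 72.7 to 81.7 CPM on chow (median 76.2), 77.9 to 89.7 in fasted mice (median 79.8) and 78.4 to 88.7 on HFD (median 81.4). The 16 h fasted mice were thus all above the chow median, with 4 of 6 within the chow range.

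HFD against chow gave 0 members and 0% of genes called by edgeR, and 0 members by DESeq2. 12 members had an unadjusted p under 0.05, against 9.8% of all genes. 28 of 33 members had a log2 fold change above 0, as had 14063 of the 29746 genes tested. Among these members were Sdf2l1 (0.37 ± 0.16), Atf6 (0.26 ± 0.09), Pdia6 (0.22 ± 0.09), Chac1 (0.22 ± 0.09) and Atf4 (0.11 ± 0.04). Of the markers, none called, all 5 of choroid plexus (median log2 fold change 1.58), all 5 of forebrain glutamatergic neurons (0.44), all 4 of blood (0.34), all 4 of meninges (0.14), all 5 of microglia (0.13) and all 5 of endothelium (0.04) were above 0, and all 5 of oligodendrocytes (-0.18) below 0. Chow sums were 19.3 to 108.1 CPM for choroid plexus, 162.8 to 257.8 for forebrain glutamatergic neurons, 76.3 to 91.4 for blood, 119.4 to 146.6 for microglia and 2630 to 3916 for oligodendrocytes. The microglial sums of chow mice were all below those of HFD mice, and the other 4 overlapped. Their part in these values was not tested. These 3 comparisons share mice, so their directions are not independent of each other.

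Of the factors Xbp1 and Atf4 and the ATF4 targets, none stood apart by diet against chow at 16 h. Ddit3 held 9.81 to 11.0 CPM on HFD (median 10.4), 9.01 to 10.85 on chow (median 10.00) and 9.18 to 10.4 in fasted mice (median 9.80). Atf4 held 61.4 to 68.8 CPM on HFD (median 67.1), 56.6 to 65.8 on chow (median 62.5) and 57.2 to 61.7 in fasted mice (median 60.03). Ppp1r15a held 5.47 to 7.86, 6.78 to 8.13 and 6.46 to 7.56 CPM, with medians of 6.26, 6.97 and 6.93. Each of these ranges overlapped that of the chow mice. The sensor Atf6 did stand apart on HFD: all 6 HFD mice, at 93.04 to 128.2 CPM, were above all 6 chow mice, at 85.8 to 92.4 CPM. It was not called (edgeR adjusted p 0.503), and its fasted mice ran from 79.9 to 124.3 CPM. The share of all genes apart in this way on HFD was not counted.

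The chaperones were set against the ATF4 targets by the mean of their log2 CPM in each mouse, relative to the chow mice of its study. At 24 h the chaperone mean lay between -0.10 and 0.14 on chow (median -0.05) and between -0.26 and 0.05 in fasted mice (median -0.17), and 8 of 10 fasted mice were below the lowest chow mouse. The mean of the 5 ATF4 targets lay between -0.17 and 0.14 on chow and between -0.11 and 0.25 in fasted mice, with medians of 0.03 and 0.02. The ATF4 target ranges overlapped across most of their width. The difference between the 2 means was -0.21 in fasted minus chow mice, beside an SD between mice of 0.13.

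At 16 h the chaperone mean lay between 0.02 and 0.22 on HFD (median 0.19), between -0.26 and 0.22 on chow (median 0.0014) and between -0.28 and -0.04 in fasted mice (median -0.09). HFD and fasted mice did not overlap, which sums up the genes above and was given no test. The ATF4 target mean ran from -0.06 to 0.22, -0.10 to 0.09 and -0.16 to 0.08 in the same order. The difference between the means was -0.19 in fasted against HFD mice (SD between mice 0.08), -0.11 in fasted against chow (0.14) and 0.09 in HFD against chow mice (0.15). The ERAD and translocon members together moved less, from -0.05 to 0.01 in 16 h fasted mice and -0.0056 to 0.07 in HFD mice.

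**Figure D4:**
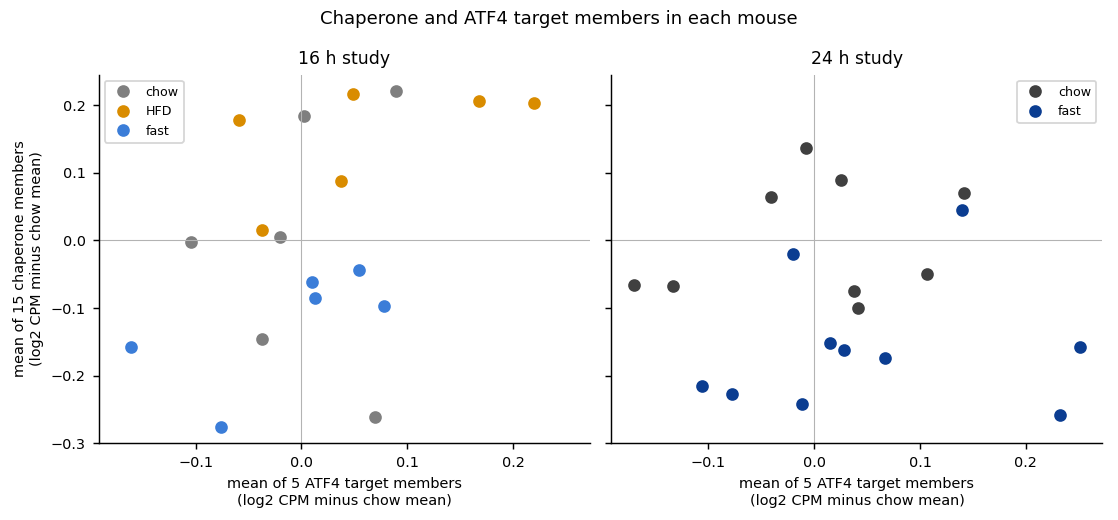
Mean log2 CPM of the 15 chaperone members (vertical) against that of the 5 ATF4 target members (horizontal) in each mouse, both relative to the chow mice of the study. HFD and fasted mice separate on the vertical axis at 16 h (0.02 to 0.22 against -0.28 to -0.04), and on the horizontal axis the diets overlap in both studies.

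The fasting effects of the 2 studies were compared in 1 fit of all 37 mice. The studies also differ in housing, clock time, hemisphere, 1 region and sequencing, which cannot be told apart from duration. By the study's methods, the hemisphere was picked at random at 16 h and was the left at 24 h, while the hypothalamus was taken whole. 1.7% of 30849 genes differed, and of the members Ppp1r15a alone, with a log2 difference of 0.42 ± 0.11 (adjusted p 0.0473; 0.0116 to 0.207 over the alternatives, lost in 27 of 37 fits without 1 mouse). For Sdf2l1 the difference was -0.16 ± 0.17 (-0.31 to 0.32 over the alternatives), for Hspa5 0.07 ± 0.14 (-0.04 to 0.14), for Pdia4 -0.14 ± 0.11 (-0.23 to 0.28) and for Creld2 -0.20 ± 0.10 (-0.28 to 0.15; adjusted p 0.458, 0.228 to 0.782 over the alternatives). For Sdf2l1, Pdia4 and Creld2 the sign turned with equal weight per column alone, which moved the median of all genes from 0.012 to 0.27. No chaperone was called different, with SEs of 0.07 to 0.17, which does not show that the effects were alike.

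The wider pathways were read from 6 lists of other genes, also chosen with earlier results of these data known. Of those tested at 24 h (32 of folding, 24 of ERAD, 27 of ER entry, 12 of signalling, 15 of the eIF2 machinery and 42 linked to ATF4), 25 rose and 5 fell, in all 19.7% of them. Over all genes 5.78% were higher and 5.62% lower, 11.4% in all, and the share was near that in the folding list (12.5%), the ER entry list (7.41%) and the signalling list (8.33%). With equal weight per column (limma) 4 genes of the 6 lists were higher and 2 lower. Of 24 further ERAD genes 7 rose and 0 fell by edgeR, with a median log2 fold change of 0.07. Ufd1 (0.27 ± 0.05, adjusted p 0.000859), which with Vcp pulls substrates from the membrane, Ube2g2 (0.26 ± 0.06), an ubiquitin-conjugating enzyme, and the lectins Os9 (0.23 ± 0.05) and Erlec1 (0.21 ± 0.05) rose most. Of 32 further folding genes, Tor1a and Dnajc25 rose and Uggt1 (-0.13 ± 0.04), the folding sensor that reglucosylates glycoproteins, and Erp44 (-0.13 ± 0.04) fell. Of 27 genes of ER entry, Ssr3 rose (0.28 ± 0.05) and the signal peptidase subunit Sec11c fell (-0.33 ± 0.08).

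Among 15 genes of the eIF2 machinery, 3 subunits of the exchange factor eIF2B rose, Eif2b2 (0.20 ± 0.06), Eif2b1 (0.20 ± 0.06) and Eif2b4 (0.18 ± 0.06). Creb3, an ER-bound factor, was the only 1 of 12 further signalling genes called (0.23 ± 0.06). Of 42 further genes linked to ATF4, 11 rose and 2 fell, with a median of 0.07. These are 26.2% and 4.76% of that list, and the 3 eIF2B genes are 20% of theirs. Over the 8731 genes whose mean log2 CPM reached 4, 9.28% rose and 3.92% fell, with a median of 0.04.

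Ddit4 (REDD1), a brake on mTORC1 that ATF4 and also glucocorticoids induce, held 25.5 to 38.5 CPM on chow (median 31.99) and 64.1 to 119.4 in fasted mice (median 102.4). Its groups did not overlap, which held in that direction for 307 of the 29011 genes tested, and it rose 3.11-fold (adjusted p 5.17e-09). Slc7a11, the cystine transporter subunit, held 70.96 to 140.3 CPM on chow (median 105.5) and 40.8 to 79.2 in fasted mice (median 56.2). The 2 groups overlapped, and it fell by 0.90 on the log2 scale (SE 0.14, adjusted p 0.000255), while Gpt2 (0.61 ± 0.07), Cebpb (0.58 ± 0.18) and the large neutral amino acid transporter Slc7a5 (0.51 ± 0.06) rose and Aldh1l2 fell (-0.38 ± 0.11). At 16 h edgeR called 0 of these genes in each comparison, with 14 (fast against chow), 15 (HFD against chow) and 33 (fast against HFD) at an unadjusted p under 0.05, and DESeq2 called 0, 0 and 3.

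**Figure D5:**
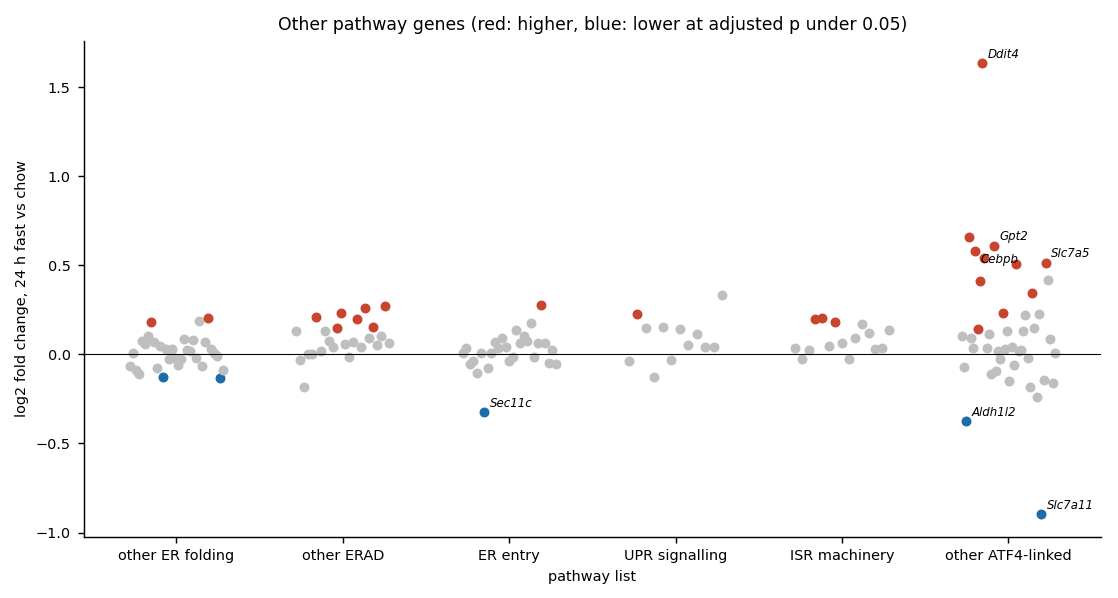
Log2 fold change of the other pathway genes in the 24 h fasted against chow mice, grouped by list and coloured where the adjusted p is under 0.05 (red higher, blue lower). The further ERAD genes hold 7 red and 0 blue points, and the ATF4-linked list spans from Slc7a11 at -0.90 to Ddit4 at 1.64.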

How the data were processed

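The authors deposited raw counts per Ensembl gene from rRNA-depleted libraries (NEBNext Ultra Directional), made with bcl2fastq 2.20.0 and STAR 2.7.3a on GRCm39, per their processing notes. The annotation release and the strand counted are not given in the sources used here, so reads of a member and of an antisense partner (such as Rabepk at Hspa5, Ccdc117 at Xbp1, Mars1 at Ddit3, Tulp2 at Ppp1r15a) cannot be told apart, and Manf shares exons with Rbm15b. All 5 columns of a mouse were summed. Members and lists were chosen with earlier results of these data known.

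edgeR 4.0.16 (R 4.3.3) was run on the sums with filterByExpr, TMM and glmQLFTest, and Benjamini-Hochberg adjusted p under 0.05 was a call. The 3 diets of 16 h shared a fit. Alternatives used DESeq2 1.42.0, limma 3.58.1, sva 3.50.0, size factors, filters, covariates, cage sums and subsets of columns and mice. Mice of a cage share food, so at 16 h p-values over mice can be too small. Values are given by group for called members and for Hspa5, Xbp1, Atf4, Ddit3 and Asns, and for up to 4 called genes per list and direction with mean log2 CPM of at least 1. Coordinates of genes are from GENCODE vM39. Ddit3 names a second identifier with 0 counts, which was not used.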

Additional observations from a re-analysis of the deposited data

Results flagged for a closer look

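Among 75 sets of values tested (13 members and the 2 class means in 5 groups), 5 held 1 mouse far from the rest of its group, by Dixon's ratio of the gap to the range. Chance gives about 1 in 20. Fasted mouse 12 of the 16 h study was lowest for Pdia6 (46.7 CPM, ratio 0.730) and Hsp90b1 (106.5 CPM, ratio 0.679). Chow mouse 6 of the 16 h study was highest for Ppp1r15a (8.13 CPM, ratio 0.768). For Asns the highest mouse stood apart on HFD (mouse 15, 88.7 CPM, ratio 0.667) and in the 24 h fasted group (mouse 1435, 106.1 CPM, ratio 0.527).

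The fasting effect differed between the 24 h and the 16 h study, by the term for the difference in the fit of all mice, for Ppp1r15a (log2 difference 0.419, edgeR adjusted p 0.0473) and for 4 other pathway genes: Ddit4 (1.41, adjusted p 1.20e-07), Gpt2 (0.533, 0.000869), Ssr3 (0.218, 0.0472) and Slc7a11 (-0.816, 0.0290). Ppp1r15a was the only 1 of 33 members, and its call was lost in 27 of 37 fits without 1 mouse. Of the other pathway genes tested, 2.63% differed. That share is near the 1.7% of all genes tested and the 2.11% of genes whose mean log2 CPM reached 4. Duration, housing, clock time, hemisphere, 1 region and sequencing differ together between the studies.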

How the results depend on the processing

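At 24 h the 2 higher members became 1 without a filter, with equal weight per column (with all columns or without the low ones) and without mice 1423, 1454 and 1455, and 1 to 2 over fits without 1 mouse. The 6 lower members became 1 with equal weight per column and 11 with equal weight without the low columns, and 5 to 7 without 1 mouse. In fasted against HFD mice 0 members became 11 (DESeq2), 9 (equal weight without low columns), 8 (surrogate variable) and 6 (round), and 0 to 6 without 1 mouse. The 1 member differing between the studies became 0 with median-ratio factors, no filter, either equal weight or no low columns, and 0 to 1 without 1 mouse. Other pathway genes higher at 24 h, 25, became 4 and 9 with equal weight (all columns, without low columns), and those lower, 5, became 3 with median-ratio factors or without mice 1423 and 1454, 2 with no filter, equal weight or without mice 1423, 1454 and 1455, and 2 to 6 without 1 mouse.

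Signs turned for 10 of 33 members at 24 h, 14 in 16 h fasted against chow, 9 in HFD against chow, 8 in fasted against HFD mice and 22 in the difference between the studies, all of them uncalled. At 24 h Canx became 0.0056 (DESeq2), 0.0058 (median-ratio), 0.0034 (no low columns) and 0.0072 (surrogate variable), and -0.042 to 0.019 without 1 mouse. Chac1 became 0.0019, 0.0018 and 0.021 (DESeq2, median-ratio, surrogate variable), and -0.079 to 0.048 without 1 mouse. Ddit3 became -0.062 and -0.061 with equal weight (all columns, without low), -0.0089 and -0.014 without 2 or 3 mice, and -0.00041 to 0.039 without 1. With equal weight Dnajb9 became -0.0027 and Trib3 0.15, and, without the low columns, P4hb -0.031, Dnajc3 -0.033, Derl1 -0.0083, Derl2 -0.038 and Ssr1 -0.010. Equal weight moved the median of all genes to -0.25 in 16 h fasted against chow mice and to -0.26 in fasted against HFD mice. In the difference between the studies it moved to 0.27. The difference between chaperone and ATF4 target means kept its sign in every comparison. No paired analysis was possible because the groups share no replicate numbers, but the round of cages, which the 3 diets share at 16 h, served as a covariate (6 members, above). The largest SE at 24 h, 0.18, was that of Trib3, the member with the lowest level per length.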
